A study of Arabidopsis thaliana with 12 samples.

Results

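In Arabidopsis seedlings, 110 probe sets had clear signal in air and rose further under low oxygen in wild type and in each of 2 overexpression lines. They were found among 22746 non-control probe sets of the Affymetrix ATH1 array, a 1-colour array on which a probe set reads the transcripts of 1 gene or of a few close relatives. The rule used log2(intensity + 1), averaged over the 2 arrays of a group. A probe set had to reach 5 in air in every genotype, and its level in hypoxia had to exceed that in air by 1 or more, a doubling, in every genotype. A set of expansin, XTH, PUB, CML and BGLU genes and of listed genes and probe sets was left out by name, which removed 11 probe sets that met both limits. At any air level 238 probe sets, 1.05% of all, met the response limit, and of the 11266 with an air level of 5 or more in every genotype 121, or 1.07%, did. The members were thus chosen by their air levels and their responses to hypoxia in these same arrays, which are given as a description.

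Plants under oxygen shortage lose most respiratory ATP and turn to glycolysis and fermentation. Group VII ethylene response factors, which are degraded while oxygen is present, drive much of the transcriptional response, and HRE1 and HRE2 are hypoxia-inducible members of that group. Best known among hypoxia genes are those with little transcript in air, such as alcohol dehydrogenase. The transcripts described here are of the other kind: they already gave signal in aerobic seedlings.

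The samples were whole 7-day-old seedlings of the Columbia-0 ecotype, grown at 23 °C on Murashige-Skoog agar with 30 mM sucrose. Wild type (WT) was compared with 35S::HRE1 (HRE1ox) and 35S::HRE2 (HRE2ox), in which the cauliflower mosaic virus 35S promoter drives the factor in most tissues. Each genotype was kept in the dark for 4 h at either 21% oxygen (air) or 1% oxygen (hypoxia), with 2 biological replicates each, so that 6 groups held 12 arrays. The labels do not say how many independent transgenic lines were used.

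The deposited intensities had medians of 32.7 to 35.7 per array, and the number of arrays, 2 a group, limits the precision of every value. Replicate 1 of the WT and HRE1ox groups, 4 arrays in all, stood apart on a spike-in control, the 5′ thr probe set, at 7.17 to 7.48 against 3.63 to 4.15 on the other 8 arrays. The same 4 had a smaller difference between the 3′ and 5′ probe sets of plant GAPDH, 1.88 to 2.20 against 2.41 to 2.94, a measure of RNA and labelling quality. WT air replicate 2 is titled as wild type but carries the HRE2 construct in its ecotype entry. Probe set 245173_at, picked because it lay farthest above WT in HRE2ox air, read 14.51 and 14.40 there, 3.23 on that array and 3.39 on WT air replicate 1. The WT mean behind that choice included WT air replicate 2, so a low value on it was favoured. Without that array the rule found 99 probe sets, all of them among the 110, and without the 4 arrays that stood apart it found 102, of which 96 were. Of the marker lists, rubisco activase (RCA), the 1 green tissue marker with an assigned probe set of 14 listed, lay at 13.57 to 14.49 on all arrays. The summed root markers, 3 of 10 assigned (EXPA7, EXPA18 and GH9C1), read 6.47 to 7.15 in WT air and 4.55 to 4.68 in WT hypoxia. In HRE1ox they read 6.88 to 7.47 and 4.6 to 4.83, and in HRE2ox 5.67 to 6.47 and 4.34 to 4.39. All 3 fell in hypoxia in each genotype, and their part in the results was not tested. In whole seedlings, fewer cells of a type and less RNA per cell cannot be told apart. Seed storage markers, 2 of 11 assigned, had summed levels of 6.73 to 7.95.

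Of the 110 probe sets, 52 had 1 assigned gene, 2 had several and 56 were not listed in the platform annotation table used. Those 56 are given by probe set only. The 52 genes lay on all 5 chromosomes, with 15, 7, 10, 6 and 14 on chromosomes 1 to 5. Mean signal over the air groups ran from 5.16 to 11.64 (log2) with a median of 6.95, and over the hypoxia groups from 6.49 to 13.57 with a median of 8.97. Such signals do not rank transcripts by abundance, since probe sets differ in how well they bind. A filter of log2 4 on at least 2 arrays kept 13687 probe sets for testing, and all 110 passed it.

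Hypoxia responses, the hypoxia mean minus the air mean on the log2 scale, had medians over the 110 of 1.57 in WT, 1.99 in HRE1ox and 1.52 in HRE2ox. They ran from 1.03 to 4.29, from 1.01 to 4.52 and from 1.01 to 3.94. A response of 2 or more, which is 4-fold, was seen for 31 probe sets in WT, 53 in HRE1ox and 29 in HRE2ox. The largest of the 3 responses was in HRE1ox for 74 probe sets, in HRE2ox for 19 and in WT for 17. Neither of these counts was made over all probe sets, and nothing is read from them. For 108 of the 110, every hypoxia array lay above every air array, against 5.1% of tested probe sets; the exceptions were 263231_at and 257053_at. In limma's fit, 97 were higher in hypoxia at an adjusted p under 0.05 in WT, where 3.31% of all tested probe sets were. In HRE1ox 104 were, beside 5.31% of all, and in HRE2ox 95, beside 3.38%. The rule used this contrast, so nothing is read from these counts.

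At the edge of the rule, the smallest qualifying responses were 1.01 for AT5G48540, 1.01 for AT4G27280 and 1.03 for AT5G35940, and the nearest outside were 0.99 for 252414_at, 0.99 for 254197_at and 0.98 for AT2G18670. On the air limit, AT3G13650 at 5.0, AT5G05790 at 5.01 and AT2G47890 at 5.05 were just inside. AT5G60800 at 4.98, 264436_at at 4.92 and AT1G05575 at 4.89 were just outside.

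**Figure D1:**
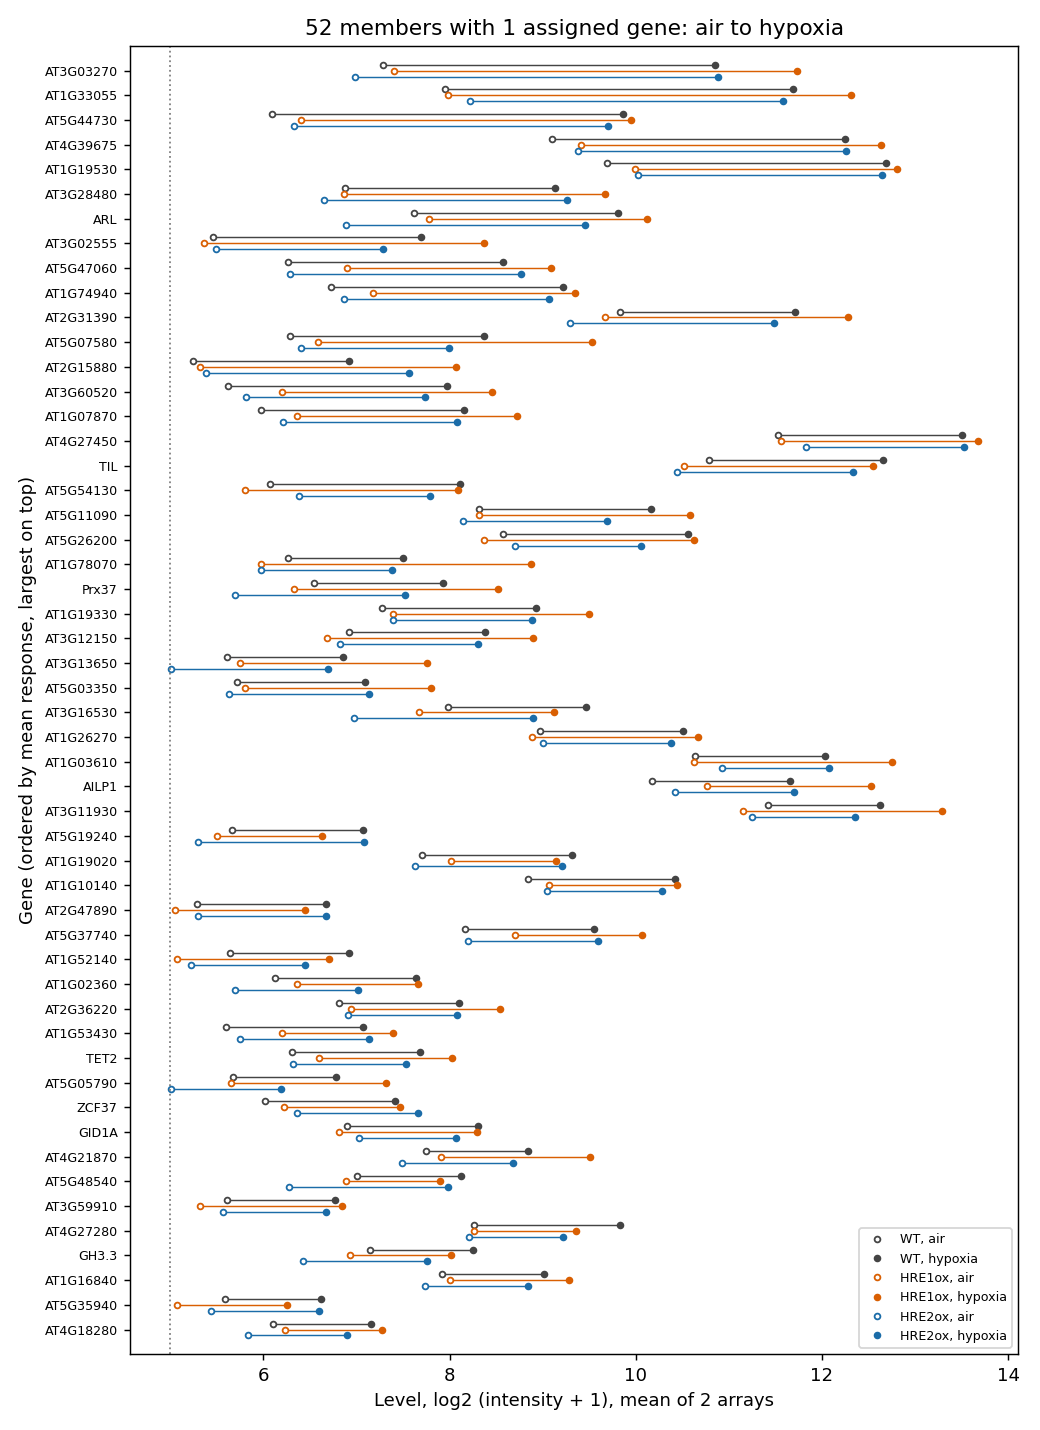
Mean level (log2 of intensity + 1, 2 arrays a group) of the 52 genes with their own probe set, in air (open circles) and hypoxia (filled circles) for WT, HRE1ox and HRE2ox; each line joins the air and hypoxia means of 1 genotype, and the dotted line marks the air limit of 5. Genes are ordered by mean response, from AT3G03270 at the top to AT4G18280 at the bottom, and every line runs from left to right because the rule asked for it.

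Universal stress, aluminium-induced and chaperone-like proteins made up 6 of the 52 genes, with mean responses from 1.30 to 3.93. AT3G03270 encodes a universal stress protein, from a family of small nucleotide-binding proteins that in several plants accumulate under stress. It had the largest response of any single-gene member, 15.2-fold on average. In air it read 7.48 and 7.10 in WT, 7.55 and 7.26 in HRE1ox, and 7.03 and 6.94 in HRE2ox. In hypoxia it read 10.93 and 10.76, 11.88 and 11.59, and 10.89 and 10.88. Air and hypoxia arrays were far apart in every genotype, and both HRE1ox hypoxia arrays lay above all others. AT3G11930, another universal stress protein, had high air signal of 11.26 and 11.58 in WT, 11.10 and 11.20 in HRE1ox, and 11.23 and 11.27 in HRE2ox. Its hypoxia signal was 12.59 and 12.66 in WT, 13.26 and 13.33 in HRE1ox, and 12.46 and 12.25 in HRE2ox. Again the HRE1ox hypoxia arrays were the highest, with no overlap with WT.

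AT4G27450 and AILP1 encode related aluminium-induced proteins of the YGL and LRDR motif family. AT4G27450 had the highest mean air signal of the 110. It read 11.55 and 11.5 in WT air, 11.66 and 11.46 in HRE1ox air, and 12.0 and 11.65 in HRE2ox air, against 13.71 and 13.30, 13.74 and 13.61, and 13.46 and 13.60 in hypoxia. The WT hypoxia arrays overlapped those of both lines, and HRE1ox lay above HRE2ox by a very small margin. Each WT and HRE1ox group had replicate 1 the higher. TIL, the temperature-induced lipocalin, a small lipid-binding protein known from heat and freezing tolerance, had air values of 10.84 and 10.73 in WT, 10.41 and 10.62 in HRE1ox, and 10.59 and 10.30 in HRE2ox. In hypoxia it stood at 12.70 and 12.61, 12.59 and 12.49, and 12.46 and 12.21, so WT was the highest in both conditions by small margins. The last of the group, the HSP20-like AT4G21870, had responses of 1.10 in WT, 1.60 in HRE1ox and 1.19 in HRE2ox.

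Metabolic proteins, among them an oxygen-using enzyme, were 4 of the 52, with mean responses from 1.86 to 3.56. AT5G44730 encodes a protein of the HAD hydrolase family. Its air values were 5.93 and 6.25 in WT, 6.21 and 6.60 in HRE1ox, and 6.38 and 6.27 in HRE2ox. Its hypoxia values were 9.67 and 10.06, 9.81 and 10.09, and 9.76 and 9.64. In hypoxia WT overlapped both lines, while HRE1ox lay above HRE2ox, and replicate 1 was the lower in each WT and HRE1ox group. The mean gain over the 3 genotypes was 11.8-fold. AT3G28480 belongs to the prolyl 4-hydroxylases, enzymes that use oxygen, iron and 2-oxoglutarate. It read 6.79 and 6.97 in WT air, 6.76 and 6.98 in HRE1ox air, and 6.60 and 6.70 in HRE2ox air. Hypoxia values were 9.10 and 9.17 in WT, 9.64 and 9.70 in HRE1ox, and 9.04 and 9.48 in HRE2ox, with HRE1ox highest.

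AT2G31390 encodes a fructokinase, which phosphorylates the fructose released from sucrose. It read 9.68 and 9.99 in WT air, 9.53 and 9.80 in HRE1ox air, and 9.25 and 9.33 in HRE2ox air. In hypoxia the values were 11.46 and 11.98, 11.97 and 12.59, and 11.65 and 11.32, where the higher WT array lay just above the lower HRE1ox array. Replicate 1 was the lower in each WT and HRE1ox group, and at either replicate number HRE1ox lay above WT in hypoxia. The mitochondrial carrier AT5G26200 had responses of 1.98 in WT, 2.25 in HRE1ox and 1.35 in HRE2ox.

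Transcription-linked and SnRK1-linked regulators were 6 of the 52. AT5G07580 is an ethylene response factor outside group VII. It read 6.20 and 6.38 in WT air, 6.73 and 6.44 in HRE1ox air, and 6.45 and 6.35 in HRE2ox air. In hypoxia it read 8.51 and 8.24 in WT, 9.71 and 9.34 in HRE1ox, and 7.93 and 8.05 in HRE2ox. The 3 genotypes did not overlap in hypoxia, with HRE1ox at the top and HRE2ox at the bottom. AT5G47060 and AT1G74940 encode FCS-like zinc finger proteins, a family that binds the energy-sensing kinase SnRK1. AT5G47060 read 6.30 and 6.23, 6.85 and 6.95, and 6.00 and 6.56 in the air groups of WT, HRE1ox and HRE2ox, and 8.33 and 8.82, 9.10 and 9.08, and 8.89 and 8.65 in hypoxia.

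For AT1G74940 the replicates were far apart, at 7.11 and 6.35 in WT air and 9.68 and 8.75 in WT hypoxia. HRE1ox had 7.48 and 6.87 in air and 9.84 and 8.85 in hypoxia, and HRE2ox 6.86 and 6.86 in air and 8.83 and 9.31 in hypoxia. Replicate 1 was the higher in each WT and HRE1ox group, and these are the 4 arrays that stood apart on the thr control. The B-box protein AT2G47890 had nearly equal responses of 1.39, 1.40 and 1.37 in WT, HRE1ox and HRE2ox. The MYB-like AT5G05790 had 1.11, 1.67 and 1.18, and AT1G19330, related to the SAP30 subunit of histone deacetylase complexes, had 1.65, 2.11 and 1.5.

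Kinase, calcium and lipid signalling genes numbered 6, with mean responses from 1.22 to 2.14. AT1G07870, a protein kinase, had the largest, at 2.18 in WT, 2.37 in HRE1ox and 1.87 in HRE2ox. AT1G26270 encodes a protein of the phosphatidylinositol 4-kinase family. It read 8.70 and 9.24 in WT air, 8.72 and 9.05 in HRE1ox air, and 8.97 and 9.05 in HRE2ox air, then 10.35 and 10.66, 10.49 and 10.85, and 10.53 and 10.23 in hypoxia. The genotypes overlapped in both conditions, with replicate 1 the lower in each WT and HRE1ox group. The EF-hand protein AT4G27280, which binds calcium, had 1.56 in WT, 1.10 in HRE1ox and 1.01 in HRE2ox. The C2-domain protein AT5G37740 had 1.39, 1.36 and 1.39. AT5G54130, a calcium-binding phosphatase-like protein, had 2.04, 2.29 and 1.41, and the receptor-like kinase AT1G53430 had 1.47, 1.19 and 1.39.

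Growth and hormone genes were 4. ARL, the ARGOS-like gene that promotes organ growth, had responses of 2.20 in WT, 2.34 in HRE1ox and 2.57 in HRE2ox. Its HRE2ox air values of 6.98 and 6.80 lay under 7.56 and 7.67 in WT and 7.79 and 7.77 in HRE1ox. GID1A, a gibberellin receptor, had 1.40, 1.48 and 1.04, and the tetraspanin gene TET2 had 1.38, 1.43 and 1.21. GH3.3, an enzyme that conjugates auxin to amino acids, had 1.11, 1.08 and 1.34.

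Secreted, cell wall, lectin and defence proteins formed the biggest role group, 10 of the 52, with mean responses from 1.05 to 2.20. AT2G15880, a leucine-rich repeat extensin, had the largest. It read 5.01 and 5.49 in WT air, 4.77 and 5.86 in HRE1ox air, and 5.38 and 5.40 in HRE2ox air. In hypoxia it read 6.51 and 7.33 in WT, 7.76 and 8.38 in HRE1ox, and 7.74 and 7.40 in HRE2ox. Each WT and HRE1ox group had replicate 1 the lower, by 0.48 to 1.08. Prx37, a class III peroxidase of the apoplast, had 1.38, 2.18 and 1.82 in WT, HRE1ox and HRE2ox. The legume-type lectins AT5G03350 and AT3G16530 had 1.38, 1.99 and 1.5, and 1.48, 1.45 and 1.92. The dirigent-like AT3G13650 had 1.25, 2.01 and 1.69. The jacalin-type lectin AT5G35940, the chitinase-family AT1G02360, the glycosylphosphatidylinositol-anchored AT5G19240, the DUF26 protein AT5G48540 and the glycine-rich AT4G18280 had responses between 1.01 and 1.79.

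Outside these groups stood the WD40 repeat protein AT1G78070, the ankyrin repeat protein AT3G59910 and 14 genes to which no role is given here. AT1G33055 had the second largest single-gene response, with 7.82 and 8.09 in WT air, 8.01 and 7.95 in HRE1ox air and 8.33 and 8.11 in HRE2ox air. In hypoxia it had 11.56 and 11.82, 12.24 and 12.39, and 11.64 and 11.52, with HRE1ox above the others. AT4G39675 read 9.12 and 9.09, 9.55 and 9.29, and 9.24 and 9.53 in air, and 12.19 and 12.31, 12.60 and 12.66, and 12.19 and 12.33 in hypoxia. Its HRE1ox hypoxia arrays were also the highest. AT1G19530 read 9.92 and 9.47, 10.27 and 9.70, and 9.89 and 10.17 in air, and 12.79 and 12.58, 12.94 and 12.67, and 12.65 and 12.64 in hypoxia. There WT overlapped both lines, and HRE1ox lay just above HRE2ox, with replicate 1 the higher in each WT and HRE1ox group.

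AT1G03610 read 10.34 and 10.94 in WT air, 10.43 and 10.82 in HRE1ox air, and 11.11 and 10.76 in HRE2ox air, and its hypoxia values were 11.91 and 12.16, 12.52 and 12.98, and 12.17 and 11.98. AT2G36220 read 7.16 and 6.46, 7.29 and 6.59, and 6.93 and 6.89 in air, and 8.21 and 8.0, 8.89 and 8.20, and 7.85 and 8.30 in hypoxia. AT1G03610 was highest in HRE1ox hypoxia, and AT2G36220 had replicate 1 higher in each WT and HRE1ox group.

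Probe sets with no single assigned gene held the largest response of all. In 245035_at the air values were 5.04 and 5.34 in WT, 5.27 and 5.64 in HRE1ox, and 5.43 and 4.99 in HRE2ox, and the hypoxia values 9.59 and 9.36, 9.93 and 9.66, and 9.09 and 9.21. That is 18.3-fold on average, with HRE2ox the lowest in hypoxia. For 248719_at, air values were 7.01 and 6.67, 6.68 and 6.89, and 6.66 and 6.77, and hypoxia values 10.10 and 10.13, 10.96 and 10.76, and 9.84 and 9.89. Here HRE1ox lay above WT and HRE2ox below it in hypoxia.

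For 245757_at, air values were 5.38 and 4.92, 6.23 and 6.24, and 5.94 and 5.53, and hypoxia values 8.66 and 8.64, 9.79 and 9.51, and 7.67 and 8.03. Its HRE1ox arrays were above WT in both conditions. For 266965_at, air values were 6.79 and 7.00, 6.79 and 7.01, and 7.03 and 6.77, and hypoxia values 9.79 and 9.84, 10.06 and 10.21, and 9.51 and 9.52, in the order HRE1ox, WT, HRE2ox.

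**Figure D2:**
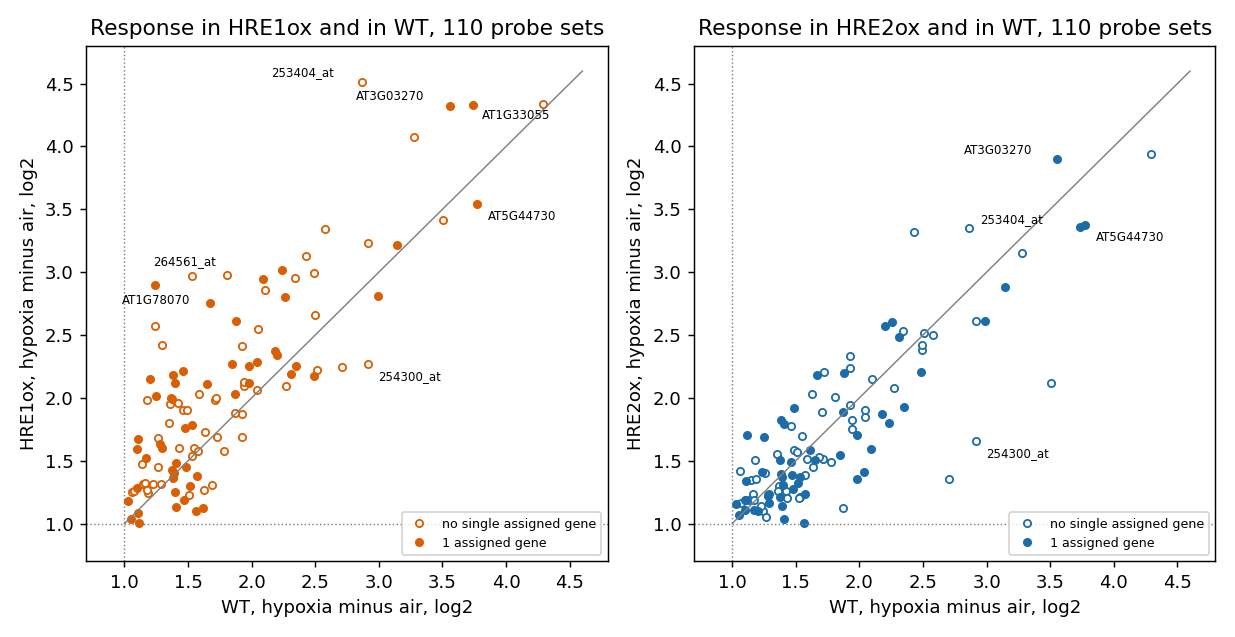
Hypoxia minus air (log2) in HRE1ox (left) and HRE2ox (right) against the same in WT for the 110 probe sets; filled circles have 1 assigned gene, open circles none or several, the diagonal marks equal responses and the dotted lines the limit of 1 that the rule set. Most points lie above the diagonal on the left, where 80 of 110 responses exceeded WT, and 48 of 110 do on the right.

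Whether the 2 factors change these transcripts was asked by comparing each line with WT in air, in hypoxia and in the size of the response. The rule did not use those differences, although it held each response at 1 or more. The air comparisons of the 2 lines share the WT air arrays, the hypoxia comparisons share the WT hypoxia arrays, and the response comparisons use all 4. Differences are given with limma's standard error, and p-values were adjusted over all 13687 probe sets within a comparison.

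In hypoxia, HRE1ox was higher than WT for 7 members and lower for 1, at an adjusted p under 0.05 in limma. Over all tested probe sets 0.511% were higher and 0.329% lower, against 6.36% and 0.909% of the 110. The median difference was 0.27 over the members and -0.01 over all tested probe sets, and 85 of the 110 were above 0 beside 48.4% of all. At an unadjusted p under 0.05, 35 members were higher and 3 lower, beside 3.97% and 3.96% of all. HRE1ox lay above WT for 5 of the 6 stress proteins, 4 of the 4 metabolic proteins and 5 of the 6 regulators. It also did for 4 of the 6 signalling genes, 2 of the 4 growth genes and 6 of the 10 secreted proteins. So it did for 2 of the 2 repeat proteins and 12 of the 14 genes with no role given. These role groups were formed with the values known, most of their members did not pass the test singly, and no difference between groups was tested. With the 4 arrays that stood apart taken as a block, 25 members were called, 24 of them higher, beside 2.79% of all tested probe sets. With the replicate number as a block on the 8 WT and HRE1ox arrays, 29 were called, 28 of them higher, beside 3.52%. All 8 calls were kept in both fits.

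The largest difference was in 264561_at, which read 10.15 and 10.13 in WT hypoxia and 12.04 and 11.84 in HRE1ox hypoxia. The difference was 1.80 ± 0.14 (SE, 2 arrays a group; limma adjusted p = 0.00125). In air it read 8.61 and 8.60 in WT and 8.92 and 9.01 in HRE1ox, and HRE2ox had 9.25 and 8.97 in air and 10.40 and 10.25 in hypoxia. For 253404_at, WT hypoxia arrays read 9.39 and 9.16 and HRE1ox arrays 10.58 and 10.73, a difference of 1.38 ± 0.15 (adjusted p = 0.0047). The air values of that probe set ran the other way, at 6.44 and 6.38 in WT and 6.08 and 6.20 in HRE1ox, and HRE2ox had 5.59 and 5.92 in air and 9.08 and 9.14 in hypoxia.

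AT1G78070, the WD40 repeat protein, read 7.58 and 7.43 in WT hypoxia and 8.92 and 8.84 in HRE1ox hypoxia, higher by 1.37 ± 0.18 (adjusted p = 0.0101). Its air values were 6.38 and 6.15 in WT and 6.04 and 5.91 in HRE1ox, and HRE2ox stayed near WT with 6.09 and 5.85 in air and 7.64 and 7.13 in hypoxia. AT5G07580, the ethylene response factor described above, was higher by 1.15 ± 0.17 (adjusted p = 0.0187). AILP1 read 10.20 and 10.16 in WT air, 10.80 and 10.73 in HRE1ox air, and 10.51 and 10.34 in HRE2ox air, and 11.73 and 11.58, 12.59 and 12.46, and 11.78 and 11.62 in hypoxia. HRE1ox was above WT in both conditions, by 0.87 ± 0.13 in hypoxia (adjusted p = 0.0173).

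The other pair of higher calls had no assigned gene. In 262045_at, hypoxia values were 8.73 and 8.98 in WT, 9.89 and 10.25 in HRE1ox and 8.75 and 8.64 in HRE2ox, and air values 6.98 and 7.12, 7.05 and 7.14, and 6.52 and 6.86. HRE1ox exceeded WT by 1.21 ± 0.17 in hypoxia (adjusted p = 0.0159). In 261191_at, hypoxia values were 9.33 and 9.37, 10.61 and 10.44, and 9.26 and 9.45, and air values 8.31 and 7.91, 8.09 and 7.82, and 8.32 and 8.19. The difference was 1.18 ± 0.17 (adjusted p = 0.0159), and neither probe set separated HRE1ox from WT in air.

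The single lower call was 263231_at, which was lost when no filter on low signal was used (adjusted p = 0.121). It had 7.78 and 7.05 in WT air, 6.24 and 4.87 in HRE1ox air, and 6.26 and 5.83 in HRE2ox air. Its hypoxia values were 9.22 and 8.86 in WT, 7.04 and 6.60 in HRE1ox, and 8.03 and 8.11 in HRE2ox. HRE1ox was lower by 2.21 in hypoxia (difference -2.21 ± 0.41, adjusted p = 0.0492), and in air it differed by -1.86 ± 0.41 (adjusted p = 0.189). WT was the highest genotype in both conditions.

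Near the threshold were AT3G03270 with 0.89 ± 0.17 (adjusted p = 0.0584), 257152_at with 1.24 ± 0.26 (adjusted p = 0.0735), 245757_at with 1.0 ± 0.21 (adjusted p = 0.0748) and AT3G11930 with 0.67 ± 0.14 (adjusted p = 0.0788), none of them called without a block. Leaving out 1 of the WT or HRE1ox hypoxia arrays leaves 1 array in an arm, with the spread taken from the other groups. Fewer members were then called, and fewer probe sets across the array as well. The differences ran from 1.70 to 1.90 for 264561_at and from 1.26 to 1.5 for 253404_at. For AILP1 they ran from 0.79 to 0.94 and for 263231_at from -2.43 to -1.99. Without the 4 arrays that stood apart, each WT and HRE1ox group is 1 array and the spread comes from the HRE2ox groups alone. No probe set of the array was then called, while 81 of 110 differences were above 0 and those of 264561_at, 253404_at and 263231_at were 1.71, 1.58 and -2.25.

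**Figure D3:**
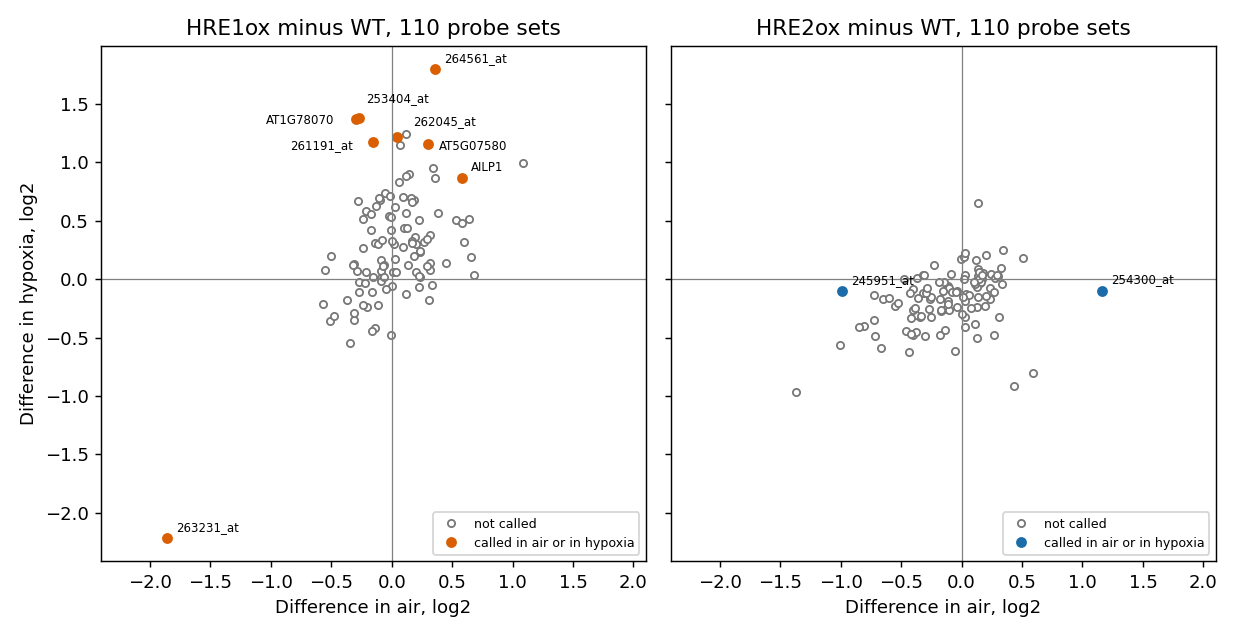
Difference of HRE1ox (left) and HRE2ox (right) from WT in air (horizontal axis) and in hypoxia (vertical axis), both log2, for the 110 probe sets; filled points passed limma's adjusted p of 0.05 in air or in hypoxia. On the left, 85 points lie above 0 on the vertical axis and 7 of the 8 filled points are there; on the right, 28 lie above 0 and both filled points sit far out along the air axis.

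In air, 0 members passed the test between HRE1ox and WT in limma, where 0.00731% of all tested probe sets passed. At an unadjusted p under 0.05 there were 12, with 8 higher and 4 lower, beside 5.14% and 4.64% of all. With the 4 arrays as a block 3 members were called, beside 1.03% of all, and with the replicate block on 8 arrays 4, beside 1.45%. Air differences were above 0 for 57 of 110, beside 47.9% of all, had a median of 0.01 and ran from -1.86 for 263231_at to 1.09 for 245757_at (1.09 ± 0.21, adjusted p = 0.14).

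The response to hypoxia was larger in HRE1ox than in WT for 2 members by the interaction test, 253404_at by 1.65 ± 0.21 and 264561_at by 1.44 ± 0.19 (limma adjusted p = 0.049 for both). Among all tested probe sets, 0.0511% had a larger and 0.0292% a smaller response in HRE1ox. AT1G78070, with a difference of 1.66 ± 0.26, was not called (adjusted p = 0.0925), nor were 261191_at with 1.33 ± 0.24 (0.136) and 262045_at with 1.17 ± 0.25 (0.207). The median over the members was 0.19 and over all tested probe sets 0.01, and 80 of the 110 were above 0 beside 51.3% of all. At an unadjusted p under 0.05, 22 members had a larger response, beside 2.38% of all, and 1 a smaller, beside 3.19%. Both calls lie just under the threshold. Neither passed when any 1 of the 8 WT and HRE1ox arrays was left out, which leaves 1 arm with a single array and the spread to the other groups; the differences then ran from 1.53 to 1.77 for 253404_at and from 1.34 to 1.54 for 264561_at. With the 4 arrays as a block 7 members were called, all with a larger response, beside 0.599% of all.

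HRE2ox differed from WT in air for 2 members, 1 lower and 1 higher, where 0.694% of all tested probe sets were lower and 0.241% higher. In 245951_at it was lower: air values were 10.27 and 9.97 in WT, 9.66 and 9.58 in HRE1ox and 9.15 and 9.12 in HRE2ox, a difference of -0.99 ± 0.13 (adjusted p = 0.012). In hypoxia the genotypes were close, at 12.52 and 12.58, 12.69 and 12.81, and 12.46 and 12.45. In 254300_at it was higher: air values were 6.13 and 5.52 in WT, 6.67 and 6.34 in HRE1ox and 7.02 and 6.96 in HRE2ox, a difference of 1.16 ± 0.19 (adjusted p = 0.0313). Hypoxia values again lay together, at 8.75 and 8.74, 8.81 and 8.74, and 8.65 and 8.64. For both probe sets the genotypes were separate in air and closer together in hypoxia.

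Next to these, the peroxidase Prx37 was at -0.85 ± 0.17 (adjusted p = 0.0568), ARL at -0.72 ± 0.17 (0.0922), the lectin AT3G16530 at -1.0 ± 0.29 (0.149) and GH3.3 at -0.72 ± 0.22 (0.168), none called. At an unadjusted p under 0.05, 15 members were lower, beside 7.58% of all, and 3 higher, beside 7.63%, and the median air difference was -0.08, with 49 of 110 above 0 beside 51.8% of all. Leaving out 1 WT or HRE2ox air array, among them WT air replicate 2 with its conflicting labels, again left 1 array in an arm. Fewer members and fewer probe sets across the array were then called. The differences ran from -1.14 to -0.84 for 245951_at and from 0.85 to 1.47 for 254300_at. With the 4 arrays as a block 14 members were called, 12 lower and 2 higher, beside 5.84% of all tested probe sets.

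In hypoxia, 0 members passed the test between HRE2ox and WT in limma, beside 0.0731% of all tested probe sets. At an unadjusted p under 0.05, 10 were lower, beside 5.04% of all, and 0 higher, beside 4%. The median difference was -0.14 against -0.01 over all, and 28 of 110 were above 0 beside 47.9%. Replicate 1 of WT stood apart in each condition and no HRE2ox array did. Line and array set are thus partly confounded in the comparisons of HRE2ox with WT. Without the 4 arrays that stood apart, 39 of 110 differences in hypoxia were above 0, with a median of -0.13. For the response itself, 0 members passed beside 0.0292% of all, with 3 larger and 5 smaller at an unadjusted p under 0.05, beside 1.31% and 1.28%. The response was larger in HRE2ox for 48 of 110, beside 45.8% of all. The most negative difference was that of 245757_at, -1.39 ± 0.29 (adjusted p = 0.564).

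**Figure D4:**
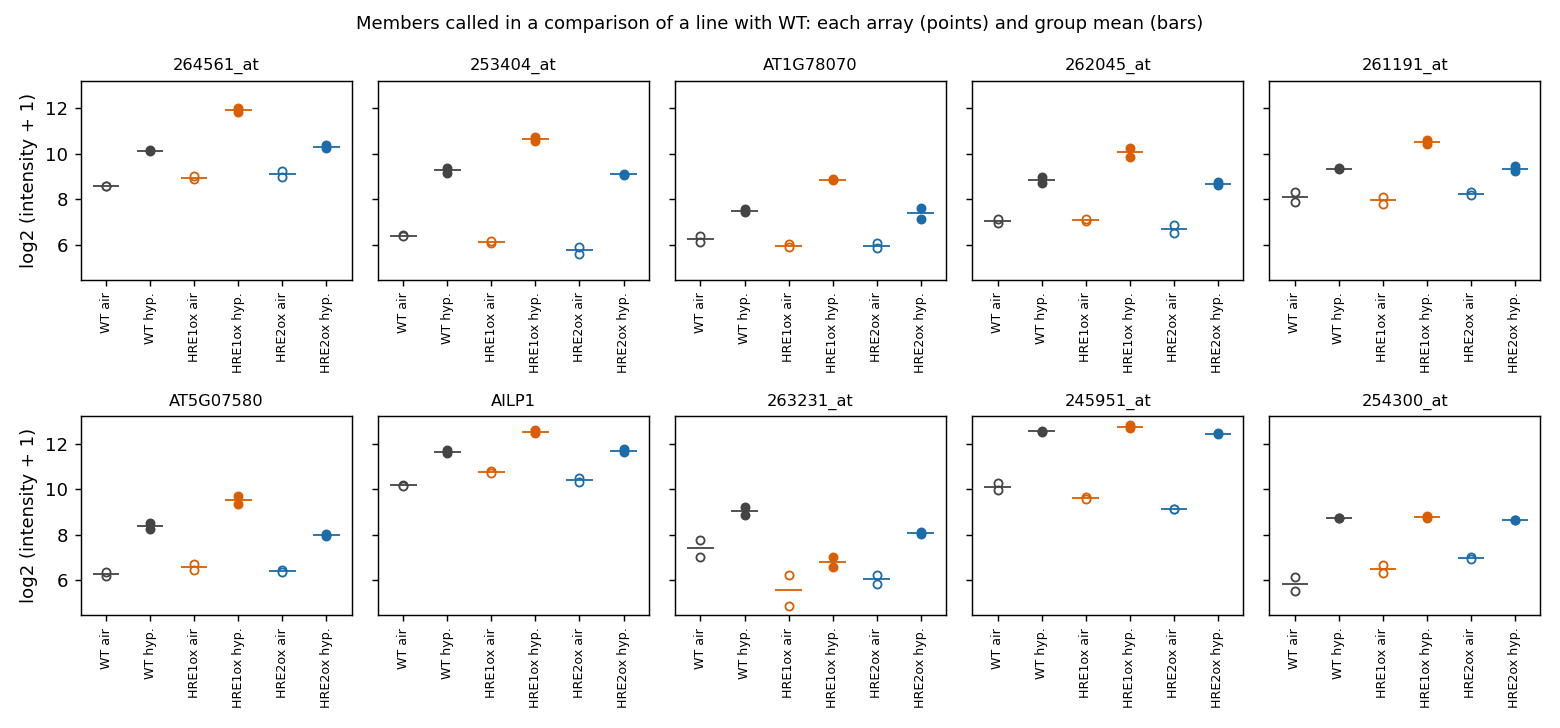
Level (log2 of intensity + 1) on each array (points, 2 a group) with the group mean (bar) for the 10 members called in a comparison of HRE1ox or HRE2ox with WT; open circles are air and filled circles hypoxia. In the first 7 panels the HRE1ox hypoxia points lie above all others, in 263231_at WT lies highest, and in 245951_at and 254300_at the genotypes separate in air and come together in hypoxia.

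Among 57 genes listed as the core hypoxia response of Arabidopsis, 27 had a tested probe set, and 10 of these are members: AT3G03270, AT1G33055, AT5G44730, AT1G19530, AT4G27450, AT5G47060, AT1G74940, AT2G15880, AT2G36220 and AT1G26270. Their median response was 2.40 in WT, 2.47 in HRE1ox and 2.35 in HRE2ox. The other 17 tested genes of that list had medians of 5.18, 6.00 and 5.32, and 16 of the 17 were higher in hypoxia in each genotype; AT3G10020 was not called in any. PDC2, AT4G17260 and AT5G66985 are among the 17 and met both limits but were left out by name, so the rule and its exclusions set this contrast. In hypoxia, limma called HRE1ox above WT for 2 of those 17 and 0 of the 10 members, beside 0.511% of all tested probe sets. The median difference was 0.61 over the 17 and 0.31 over the 10. Median differences between the HRE1ox and WT responses were 0.81 and 0.20. Higher values in HRE1ox hypoxia were thus not particular to the members.

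Other lists were counted in the same fit, over the few of their genes that had a tested probe set. In glycolysis 7 of 27 listed genes were tested, of the ribosomal proteins 7 of 12 and of the reference genes 3 of 9, and 0 were called in hypoxia in any genotype. Of 4 tested reactive oxygen genes (22 listed), 2 rose in WT, 1 in HRE1ox and 2 in HRE2ox. Of 5 tested zinc finger, NAC, WRKY and bHLH genes (25 listed), 3, 2 and 2 rose. Of 10 tested autophagy and protein turnover genes (18 listed), AT5G42200 rose in each genotype and ATG8H fell in HRE1ox. Of 2 tested sucrose and starch genes (34 listed), AT1G62660 fell in each genotype, and of 2 tested abscisic acid and water stress genes (23 listed), TIL, a member, rose in each. Of 2 tested heat shock genes (20 listed), AT5G51440 rose in WT and HRE1ox, and in HRE2ox it was at 1.17 ± 0.35 (adjusted p = 0.094). AT3G10040, the 1 tested of 15 oxygen sensing genes, rose in each genotype. The 1 tested gene each of the nitrogen (23 listed), ethylene (25), green tissue (14) and seed storage (11) lists was called in none, and 0 of 22 transport genes were tested.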

How the data were processed

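Total RNA of whole seedlings was hybridised to 12 Affymetrix ATH1 arrays. The authors deposited 1 linear intensity per probe set and array, and per the submitters' processing notes they used GCRMA, which corrects background and normalises across arrays; no version or setting is stated there. Linear scale was read from the values, all above 0. Of 22810 probe sets, 64 controls were left out. Values became log2(intensity + 1), with no further normalisation, and 13687 probe sets at log2 4 or more on 2 or more arrays were tested.

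Group means were fitted in limma 3.58.1 (R 4.3.3) on all arrays, with 6 residual and 3.255 prior degrees of freedom, and p-values were adjusted by Benjamini-Hochberg within each comparison, two-sided. The script was tested on simulated data. With 2 arrays a group, called biological replicates in the series' design, the arrays' number limits precision. Tables were made with Python 3.11.15, pandas 2.3.3 and numpy 2.4.6.

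Members and gene lists were chosen with earlier results of these data known, and the role groups were formed from general knowledge after the values were seen. Values on every array are given for the single-gene members among the 15 largest mean responses, the 6 such members with the highest air signal, members in a gene list, members called in a comparison of lines, and the 6 probe sets without a single gene with the largest responses. Genes were taken from the platform annotation, and 52 of 52 loci matched RefSeq (TAIR10.1). No sequence is shown. Replicate blocks, another pseudocount, centring, no filter, trended variances, other limits of the rule and leaving out arrays were tried.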

Additional observations from a re-analysis of the deposited data

Results flagged for a closer look

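The response to hypoxia differed between HRE1ox and WT by the interaction test for 2 probe sets without an assigned gene, 253404_at with 1.65 and 264561_at with 1.44 on the log2 scale, and the larger response was in HRE1ox for both. The first had responses of 2.86 in WT and 4.52 in HRE1ox, and the second of 1.53 and 2.97. Both calls lay just under the adjusted p limit of 0.05, and 0.0511% of all tested probe sets had a larger response in HRE1ox. Neither was called with arrays centred on their median or with trended variances.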

How the results depend on the processing

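The rule found 46 probe sets with a response limit of 1.5, 74 with an air limit of 6, 153 with an air limit of 4, 127 with a pseudocount of 16 (97 of the 110 kept) and 110 with each array centred on its median (108 kept). Leaving out 1 array gave 99 to 116. Without the 4 arrays that stood apart, a setting chosen after seeing the data, it found 102, with 96 kept.

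Replicate numbers do not pair these samples by the labels. Replicate 1 minus replicate 2 correlated at 0.67 to 0.75 across probe sets among the WT and HRE1ox groups and at -0.58 to -0.24 between these and the HRE2ox groups. With the replicate block over 12 arrays, 0 members were called for HRE1ox against WT in air, beside 0.0146% of all tested probe sets. For HRE2ox in hypoxia 0 were called, beside 0.124%, and for the HRE1ox response 3, beside 0.0877%. For HRE1ox in hypoxia there were 11, beside 0.986%. For HRE2ox in air there were 2, or 1.82% of members, beside 1.06%, and for the HRE2ox response 0, beside 0.0219%. With the replicate block on the 8 WT and HRE1ox arrays, 4, 29 and 6 were called for HRE1ox in air, in hypoxia and in the response, beside 1.45%, 3.52% and 0.671% of all tested probe sets. With the 4 arrays as a block the counts were 3, 25 and 7, beside 1.03%, 2.79% and 0.599%, and 14 for HRE2ox in air, beside 5.84%, so calls became more frequent across the array too.

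Fits that left out 1 array of a comparison had 1 array in an arm, and their differences are given above. Without the 4 arrays, where only the HRE2ox groups give a spread, 264561_at and 253404_at in HRE1ox hypoxia differed from WT by 1.71 and 1.58. With 2 arrays a group, the ranges from leaving 1 out follow from the gap between replicates and are no separate support. A pseudocount of 16 gave 13 calls for HRE1ox in hypoxia, beside 0.957% of all tested probe sets. The HRE1ox response had 0 calls with centring, beside 0.0146%, and with trended variances, beside 0.00731%. The cause of these moves was not tested. Both counts of 0 for HRE2ox, in hypoxia and in the response, stayed at 0 in every setting run, and no result reversed. Members above 0 in hypoxia numbered 71 to 88 for HRE1ox and 27 to 39 for HRE2ox when 1 array was left out.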

Other observations

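Of 33 tested probe sets of genes next to a member on the chromosome, 0 were raised by 1 or more in every genotype, beside 1.74% of tested probe sets. In any genotype 3 were, beside 4.23%. At this number, nothing is read from a count of 0.

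A mean gap of 0.5 or more between the 4 arrays that stood apart and the other replicate of their groups was seen for 22 of the 110. That is 20.0% beside 12.7% of tested probe sets, in either direction. Of the 22, 20 were higher and 2 lower on the 4 arrays, a split that was not counted over all tested probe sets. The dirigent-like AT3G13650 had a gap of 0.99, the gibberellin receptor gene GID1A of 0.86, AT1G74940 of 0.82 and the extensin gene AT2G15880 of -0.75.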
